A study of Homo sapiens with 16 samples.

Results

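U2OS, a human osteosarcoma cell line, was treated for 48 h with small interfering RNA (siRNA) against MYBL1 and MYBL2 together (the double knockdown) or against MYBL1 alone (siMYBL1). Each group held 2 of the 16 libraries of the series, which the design text calls biological replicates, and the comparison asks what the loss of MYBL2 adds where MYBL1 is already low. The authors compared each group with the same 2 U2OS libraries treated with a non-targeting siRNA (siCtrl), so the control libraries are shared between the 2 deposited tables. HCT116, a human colorectal carcinoma line given the same siRNAs for 48 h, supplied the same contrast in 4 libraries of its own against its own controls. The members are the 14760 genes present in both U2OS tables, out of 16803 genes in the table of the double knockdown and 14763 in that of siMYBL1. For each gene the log2 fold change over siCtrl after siMYBL1 was subtracted from that of the double knockdown, so a negative difference means lower RNA in the double knockdown than after siMYBL1 alone.

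MYBL1, also called A-MYB, and MYBL2, also called B-MYB, belong to the MYB family of transcription factors. MYBL2 joins the MuvB complex, which with other partners also forms the repressor DREAM, and together with FOXM1 this complex drives genes whose RNA peaks in G2 and mitosis. MuvB is recruited through a short DNA element, TTTGAA or TTTAAA, near the start of such genes (the cell cycle genes homology region, CHR), often with a CCAAT box upstream that is bound by NF-Y. An siRNA can also lower transcripts whose 3′ UTR matches a short stretch near the 5′ end of its guide strand.

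The promoters below are those of genes called lower than after siMYBL1, picked because they hold the CHR letters, and show where these lie. Each line gives up to 30 bases of the RefSeq promoter table (build GRCh38.p14), 5′ to 3′ on the strand of the gene, with the CHR letters in capitals (TTCAAA is TTTGAA read on the other strand).
PLK1 (chr16:23678848-23678877, forward strand): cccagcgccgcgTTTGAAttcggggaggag
CDCA3 (chr12:6851272-6851301, reverse strand): cgtggcgggaagTTTGAAactggtaacttc
PIF1 (chr15:64825650-64825679, reverse strand): ctgcctctagcaTTTGAAaaatttctagtt
DLGAP5 (chr14:55191565-55191594, reverse strand): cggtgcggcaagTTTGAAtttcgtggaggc
KIF20A (chr5:138179059-138179088, forward strand): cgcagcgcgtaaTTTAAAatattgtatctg
CCNB1 (chr5:69167108-69167137, forward strand): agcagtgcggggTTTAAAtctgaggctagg
CCNB2 (chr15:59105105-59105134, forward strand): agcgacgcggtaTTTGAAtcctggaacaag
MKI67 (chr10:128126435-128126464, reverse strand): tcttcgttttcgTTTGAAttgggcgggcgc
SAPCD2 (chr9:137070553-137070582, reverse strand): aggagggccccaTTCAAAagtagtcgctat
In PLK1, CCNB2 and MKI67 the first capital stood at position -29 relative to the annotated start, in CCNB1 at -30, in PIF1 at -20, in KIF20A at -41 and in SAPCD2 at -13. In CDCA3 it stood at -3, and in DLGAP5 at 3, after the start.

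The next lines show 27 bases of the 3′ UTR (GENCODE 29 transcripts) of 4 genes that were lower in the double knockdown. Capitals mark the 7-base word CCTTACA, which ranked first among all 7-base words for low values of its holders after siMYBL2 in HCT116, libraries that share nothing with U2OS.
DAP: ctgtcctttgCCTTACAtttccatatt
CENPE: gtttttaataCCTTACAcattcaataa
HLTF: agtaattcatCCTTACAgctatctgta
LIPA: agcatcatttCCTTACAatactgtccg
The sources used here do not give the siRNA sequences, so the word was taken from expression values and not from a guide strand. In DAP (chr5:10679230-10761234 of hg38, reverse strand) it covers bases 137 to 143 of a 3′ UTR of 1826 bases, and in CENPE bases 377 to 383 of 416.

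Values of single libraries were not analysed here, since each table gives 1 fold change and 1 standard error (SE) per gene, so read depth is unknown and no SD is given. The base means, which are normalized counts averaged over the 4 libraries of a table, summed to 17441617 in the table of the double knockdown and 17518487 in that of siMYBL1. The control levels that the 2 tables imply had a median log2 ratio of 0.02 (SD 0.06, genes whose base mean reached 100). The 2043 genes found only in the table of the double knockdown were low, with a median base mean of 21.2. As a check of the line, 13 of 18 mesenchymal and bone markers were listed. Among them COL1A1, SPARC, VIM and RUNX2 were listed for HCT116 too, whereas CDH2, CDH11, ALPL, TWIST2, PRRX1 and PDGFRB were not. The bone markers SP7, BGLAP and IBSP were not, nor were COL1A2 and TWIST1, which were listed for HCT116. Of 20 epithelial markers 6 were listed and CDH1 was absent. The 6 were the keratins KRT8 (base mean 33149), KRT18 (14786) and KRT20 (33.2), EPCAM (240), CLDN4 (856) and the intestinal factor CDX2 (79.4). Of 16 blood cell markers 2 were listed, with base means of 34.6 and 82.7. No marker of these 3 lists was called in the difference described next.

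The genes that were lower in the double knockdown than after siMYBL1 were led by MYBL2 itself, by PIF1 and by genes of mitosis. PIF1, a DNA helicase, CDCA3, a trigger of mitotic entry, the kinase PLK1, the kinetochore motor CENPE, the spindle protein DLGAP5 and the cytokinetic kinesin KIF20A were each at least 8.1-fold lower. Of 14760 genes, 227 were called (1.54%), 213 lower (1.44%) and 14 higher (0.0949%), at an adjusted p under 0.05, by a 2-sided normal test of the difference over the root of the summed squared SE with Benjamini-Hochberg adjustment. At an unadjusted p under 0.05 there were 719 lower and 309 higher genes. The summed error is larger than the true one, because both fold changes hold the same control libraries. With the variance divided by 2, the value for equal groups whose shared controls cancel, 602 genes were lower and 220 higher. The called lower genes had a median difference of -1.37, with 188 beyond -1 and 49 beyond -2, while the median over all genes was -0.01. Most were protein coding (204), and 9 were long noncoding RNAs. The lowest value, -7.47 (SE 1.73), belonged to GAGE2E, a cancer-testis gene of a multicopy family with a base mean of 26.5 in the table of the double knockdown, and is uncertain. GAGE2E was named after its value was seen.

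**Figure D1:**
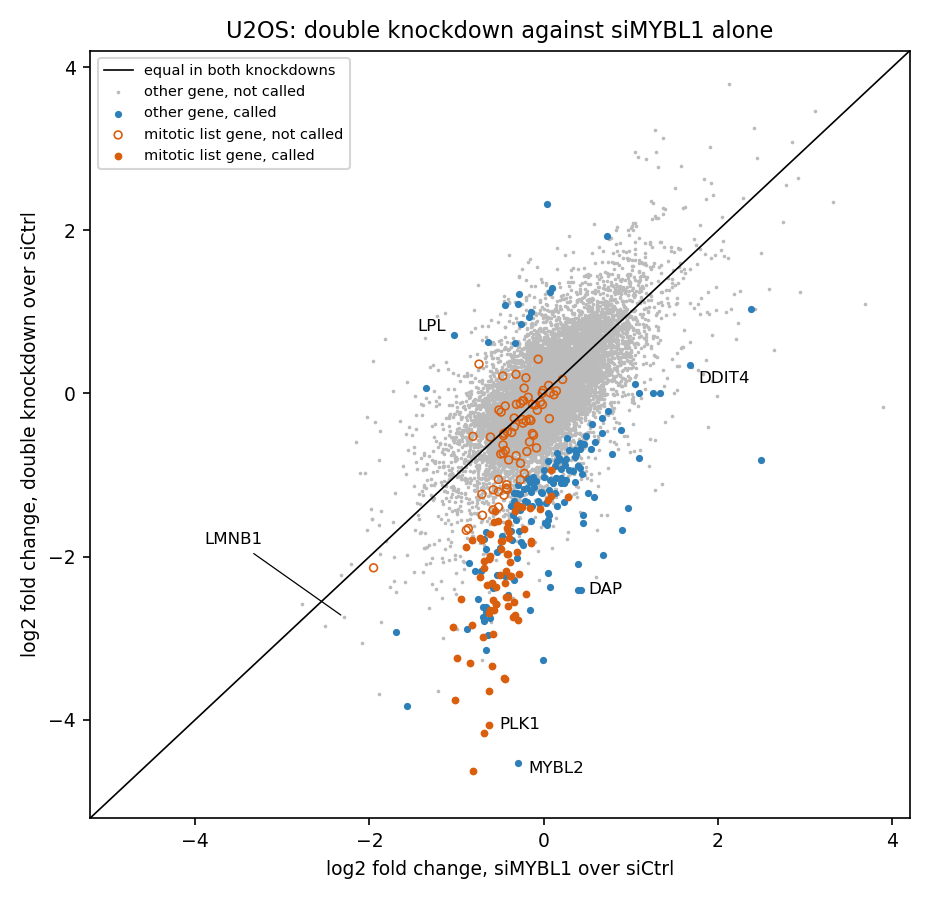
Each point is 1 of the 14760 U2OS genes, with the log2 fold change over siCtrl after siMYBL1 on the x axis and in the double knockdown on the y axis; 4 genes lie outside the axes. Of the 142 genes of the 7 mitotic lists (orange; filled where called), the 74 called ones lie below the line of equal values, down to below -4 on the y axis, and 20 uncalled ones lie above it, and LMNB1 lies near the line although it is low in both.

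The siRNA targets were examined first. By the authors' deposited tables MYBL2 (chr20:43667019-43716495 of hg38, forward strand) stood at 81.6% of siCtrl after siMYBL1 and at 4.34% in the double knockdown, with implied mean normalized counts of 4886 and 265. The difference was -4.23 (SE 0.26, adjusted p = 5.60e-56 by the same normal test), the furthest below 0 among called genes whose base mean reached 100 in both tables. MYBL1 had been lowered in both groups and stood at 50.7% of siCtrl after siMYBL1 and 43.5% in the double knockdown by the authors' deposited tables. Its difference, -0.22, had a 95% interval from -1.11 to 0.67 and did not pass. MYB, the remaining family member, had a difference of 0.83 (SE 0.63) at a base mean of 64.5 and did not pass. Of the 3 family members, MYBL2 alone was called.

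Genes of the mitotic lists made up 74 of the 213 lower genes, and 139 lower genes lay outside these lists. In 7 lists of mitotic genes (cyclins and CDK, kinases, kinetochore, kinesins and spindle, cytokinesis, condensins, and the anaphase-promoting complex), 142 members were tested and 74 were lower (52.1%, against 1.44% of all genes), 0 were higher, and the median difference was -0.99. Across the 74 called members the median level by the authors' deposited tables was 71.2% of siCtrl after siMYBL1, 61.9% after siMYBL2 and 21.5% in the double knockdown. These 3 comparisons share the siCtrl libraries. The other 68 tested members were not called, and 20 of all 142 had a difference above 0. The lists were chosen with earlier results of these data known, and no test of the share of lower members was made. Bulk RNA cannot tell apart fewer cells in G2 and mitosis from less of these RNAs in each cell.

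Among cyclins, their kinases and phosphatases, 8 of 10 tested members were lower, with a list median of -1.68. CCNB1, the cyclin that activates CDK1 at mitotic entry, had implied mean normalized counts of 5812 in siCtrl and 4746 after siMYBL1 from the deposited table of siMYBL1, and of 6054 in siCtrl and 883 in the double knockdown from that of the double knockdown. It was thus 5.60-fold lower in the double knockdown (difference -2.48, SE 0.23, adjusted p = 1.26e-24, normal test). CDC25C, the phosphatase that removes the inhibitory phosphates of CDK1, was 5.50-fold lower (-2.46, SE 0.34), CCNB2 was lower by a difference of -2.06 (SE 0.26) and CCNA2 by -1.73 (SE 0.24). CDK1 itself, the mitotic kinase, stood at 66.9% and 37.2% of siCtrl by the authors' deposited tables, and its difference of -0.85 (SE 0.27, adjusted p = 0.0882, normal test) did not pass.

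Of 16 mitotic kinases and their activators 8 were lower, with a median of -0.89. PLK1, which acts from mitotic entry to cytokinesis, had implied mean normalized counts of 2132 after siMYBL1 and 210 in the double knockdown, against 3288 and 3522 in siCtrl of the 2 deposited tables. The difference of -3.44 (SE 0.28, adjusted p = 5.27e-31, normal test) equals a level 10.9-fold lower. AURKA, the centrosomal Aurora kinase, differed by -2.25 (SE 0.29), AURKB, the kinase of the chromosomal passenger complex, by -2.09 (SE 0.29) and NEK2, a centrosome kinase, by -2.03 (SE 0.27). AURKA was already the most reduced of these 4 after siMYBL1, at 50.1% of siCtrl in the authors' deposited table.

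Among motors, spindle proteins and their partners 29 of 31 were lower, with a median of -1.65. PIF1, a DNA helicase that was counted in this list, had implied mean normalized counts of 702 after siMYBL1 and 55.6 in the double knockdown. It was 14-fold lower (-3.81, SE 0.34, adjusted p = 1.53e-25, normal test). Its 3′ UTR holds GAACTTA, the 7-base word that ranked first after siMYBL1 in HCT116. DLGAP5 differed by -3.02 (SE 0.24), KIF20A by -3.02 (SE 0.25), the microtubule-associated PSRC1 by -2.75 (SE 0.29) and DEPDC1 by -2.75 (SE 0.32). Of the genes of cytokinesis and the chromosomal passenger complex, 12 of 13 were lower, with a median of -1.43. CDCA3 went from an implied 1171 to 115 mean normalized counts (-3.48, SE 0.28, adjusted p = 1.48e-31, normal test). CDCA8, the passenger subunit borealin, differed by -2.06 (SE 0.26), CDCA2 by -1.94 (SE 0.28) and PIMREG by -2.36 (SE 0.33).

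Kinetochore and centromere genes were divided. Of 40 tested members 8 were lower, against 1.44% of all genes, 11 had a difference above 0, and the median was -0.39. CENPE differed by -3.05 (SE 0.29, adjusted p = 7.31e-23, normal test), from an implied 1655 to 208 mean normalized counts, and holds the word associated with siMYBL2 shown above. The centromeric histone CENPA differed by -2.29 (SE 0.33), its chaperone HJURP by -1.86 (SE 0.26) and the corona protein CENPF by -2.08 (SE 0.27). Of condensins, TOP2A and MKI67, 3 of 10 were lower with a median of -0.47. TOP2A, the topoisomerase that untangles sister chromatids, fell to 15.2% of siCtrl in the double knockdown from 79.6% after siMYBL1 by the authors' deposited tables, a difference of -2.39 (SE 0.22), and MKI67, the antigen Ki-67, differed by -1.86 (SE 0.28) and the condensin subunit NCAPD2 by -1.18 (SE 0.24). NCAPG did not pass (-0.79, SE 0.28).

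Of 22 members of the anaphase-promoting complex, its enzymes and its substrates 6 were lower, against 1.44% of all genes, and the list median was -0.14. The 6 were the activator CDC20, the enzymes UBE2C and UBE2S, the substrate securin, the small subunit ANAPC13 and separase (ESPL1), the protease that securin inhibits. CDC20 differed by -2.01 (SE 0.25), the ubiquitin-conjugating enzymes UBE2C by -2.22 (SE 0.28) and UBE2S by -1.52 (SE 0.23), and securin, encoded by PTTG1, by -2.03 (SE 0.26, adjusted p = 1.83e-12, normal test). Among MuvB, DREAM and partner genes, FOXM1 was the single member of 13 that passed (-0.88, SE 0.25, adjusted p = 0.0250, normal test), and the list median was -0.15. FOXM1 stood at 79.2% of siCtrl after siMYBL1 and 43.0% in the double knockdown by the authors' deposited tables.

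**Figure D2:**
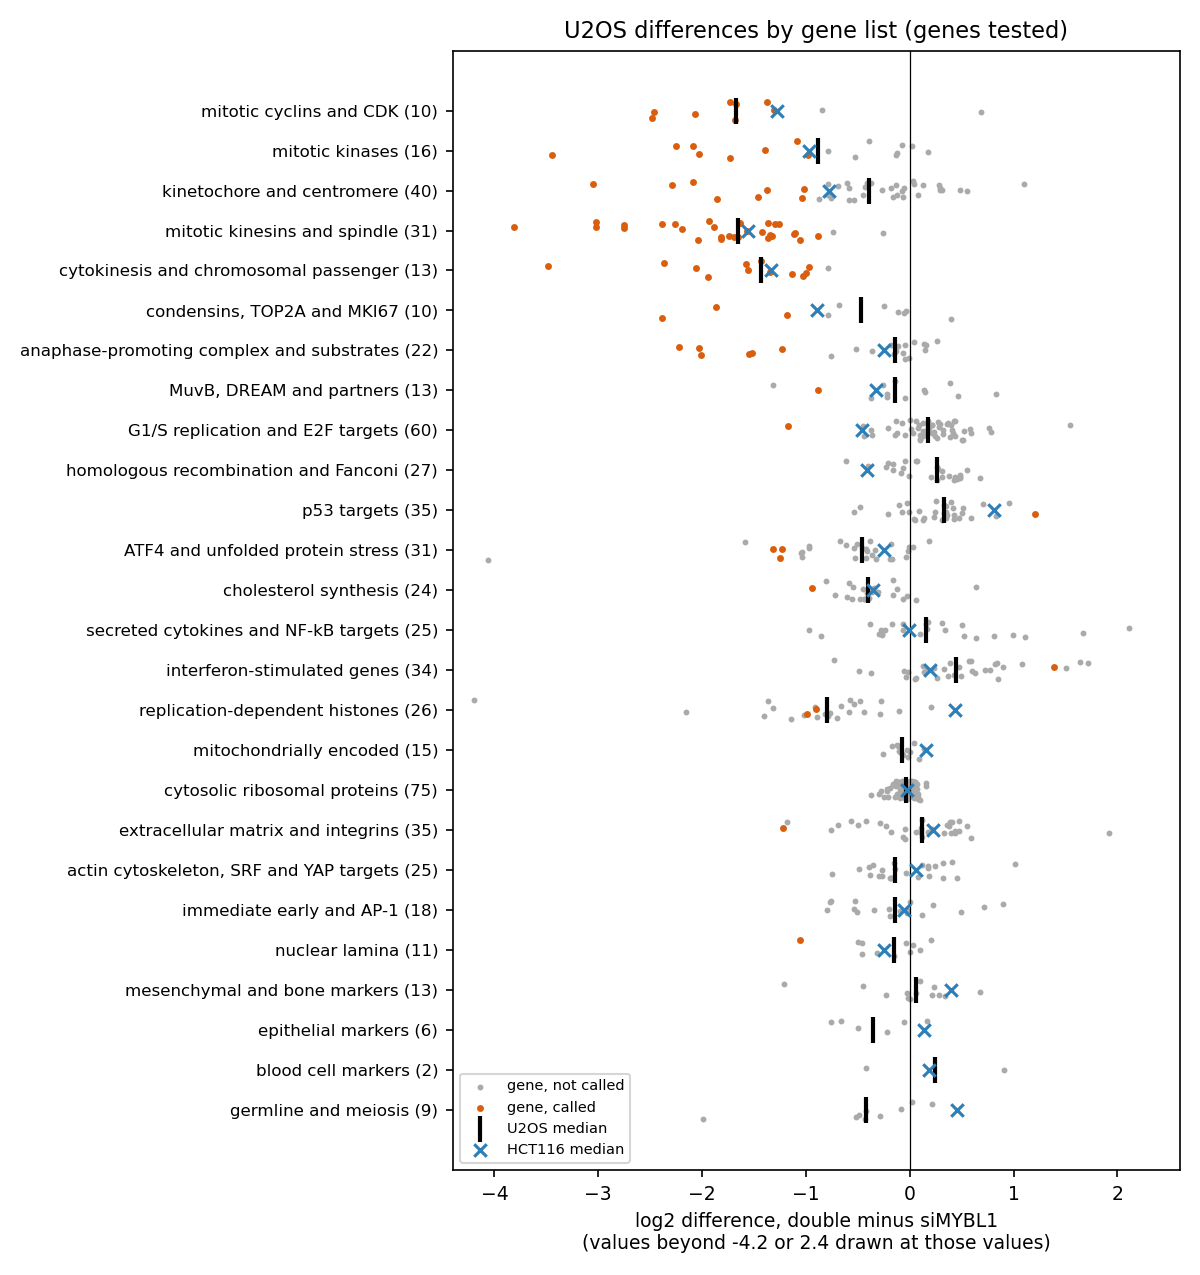
Each dot is 1 tested gene of a list (number tested in brackets), placed by its log2 difference between the double knockdown and siMYBL1 in U2OS, with small random vertical offsets; values beyond -4.2 or 2.4 are drawn at those limits. Called genes (orange) crowd the upper rows, black bars are U2OS medians and blue crosses HCT116 medians, and the G1/S and homologous recombination rows have medians above 0 in U2OS (0.18 and 0.26) and below 0 in HCT116 (-0.46 and -0.42).

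Genes of DNA replication were called about as rarely as genes in general. Of 60 G1/S and E2F target genes 1 was lower and 0 were higher, near the 1.54% of all genes that were called. Of the 60, 48 had a difference above 0, and the median was 0.18. The lower one was DBF4, the activating subunit of the CDC7 kinase, at -1.17 (SE 0.29, adjusted p = 0.00633, normal test). FEN1, the flap endonuclease, had a difference of 0.77 (SE 0.24) and PCNA, the sliding clamp, of 0.59 (SE 0.24), and neither passed. By the authors' deposited tables PCNA stood at 74.4% of siCtrl after siMYBL1 and 112% in the double knockdown. At an unadjusted p under 0.05, 5 members were higher and 1 lower, against 2.09% and 4.87% of all genes. Homologous recombination and Fanconi genes had a median of 0.26 with 0 of 27 called and 1 higher at an unadjusted p under 0.05. FANCI, a Fanconi anaemia protein, had the largest value of the list, 0.68 (SE 0.28).

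The stress list held 31 tested genes of the amino acid and unfolded protein response, many of them targets of the factor ATF4. In the double knockdown 3 were lower than after siMYBL1 and 0 were higher, against 1.44% and 0.0949% of all genes. After siMYBL1 the 31 had a median log2 fold change over siCtrl of 0.72 in the authors' deposited table, and one of 0.18 in the double knockdown. The median difference was -0.46, and 13 were lower at an unadjusted p under 0.05, against 4.87% of all genes. DDIT4, an inhibitor of mTORC1, had implied mean normalized counts of 2202 after siMYBL1 and 898 in the double knockdown, or 319% and 128% of siCtrl by the authors' deposited tables, a difference of -1.32 (SE 0.33, adjusted p = 0.00744, normal test). ASNS, asparagine synthetase, stood at 239% and 101% of siCtrl by the authors' deposited tables (difference -1.25, SE 0.36, adjusted p = 0.0387, normal test). The transcription factor ATF5 was the third, at -1.23 (SE 0.30), and stood at 104% of siCtrl after siMYBL1 and 44.2% in the double knockdown by the authors' deposited tables, unlike DDIT4 and ASNS. CHAC1, a glutathione-degrading enzyme induced by ATF4, had a difference of -1.59 (SE 0.53) and did not pass.

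The 24 cholesterol synthesis genes had a median difference of -0.40. HMGCS1, which begins the pathway, missed the threshold (-0.81, SE 0.24, adjusted p = 0.0535, normal test). Of 26 replication-dependent histone genes 2 were lower, H1-2 at -0.99 (SE 0.28) and H4C14 at -0.90 (SE 0.26), and the median was -0.79. Over all genes 1.44% were lower. Histone genes have near-identical copies, so these values are uncertain. ITGB1, the integrin beta 1 chain, was the single called gene of 35 matrix and integrin genes (-1.22, SE 0.25), and SUN2, a nuclear envelope protein, that of 11 lamina genes (-1.06, SE 0.24). LMNB1, lamin B1, was at 20.5% of siCtrl after siMYBL1 and 14.9% in the double knockdown by the authors' deposited tables, and its difference of -0.46 (SE 0.24) did not pass. No member was called among 75 ribosomal protein genes (median -0.04), 15 mitochondrially encoded genes (-0.07), 25 secreted cytokine and NF-kB genes (0.16), 25 actin, SRF and YAP genes (-0.14), 18 immediate early genes (-0.14) or 9 germline genes (-0.42).

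The 14 genes that were higher in the double knockdown were of mixed function and lay between 0.95 and 2.29. VAT1L, a quinone oxidoreductase-like protein, had implied mean normalized counts of 319 after siMYBL1 and 921 in the double knockdown, against 388 and 395 in siCtrl (difference 1.5, SE 0.32, adjusted p = 0.000431, normal test). CADM3, a cell adhesion molecule, differed by 1.27 (SE 0.31), and KIF5C, a neuronal kinesin heavy chain, by 1.1 (SE 0.30). LPL, lipoprotein lipase, had the largest difference of those whose base mean reached 100 (1.74, SE 0.48), with implied levels of 99.3 after siMYBL1 and 285 in the double knockdown. For MIAT, a long noncoding RNA, the difference of 1.42 (SE 0.36) came with a level of 39.3% of siCtrl after siMYBL1 and 105% in the double knockdown by the authors' deposited tables. IRF1, a transcription factor of the interferon response, differed by 1.39 (SE 0.37) and was the single called member of 34 interferon-stimulated genes. Their median was 0.45, and 7 were higher at an unadjusted p under 0.05. Over all genes 0.0949% were called higher, and 2.09% were higher at an unadjusted p under 0.05. CD82, a tetraspanin and p53 target, differed by 1.21 (SE 0.32) and was the single called member of 35 p53 targets (median 0.33). CDKN1A, the p53 target that encodes the inhibitor p21, had a difference of 0.34 with a 95% interval from -1.32 to 2.0. The remaining genes named by rule were LAT2 (1.53), IL11RA (1.19), TBC1D2B (1.16), COL22A1 (1.14) and GLIPR2 (1.11), all log2 differences.

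**Figure D3:**
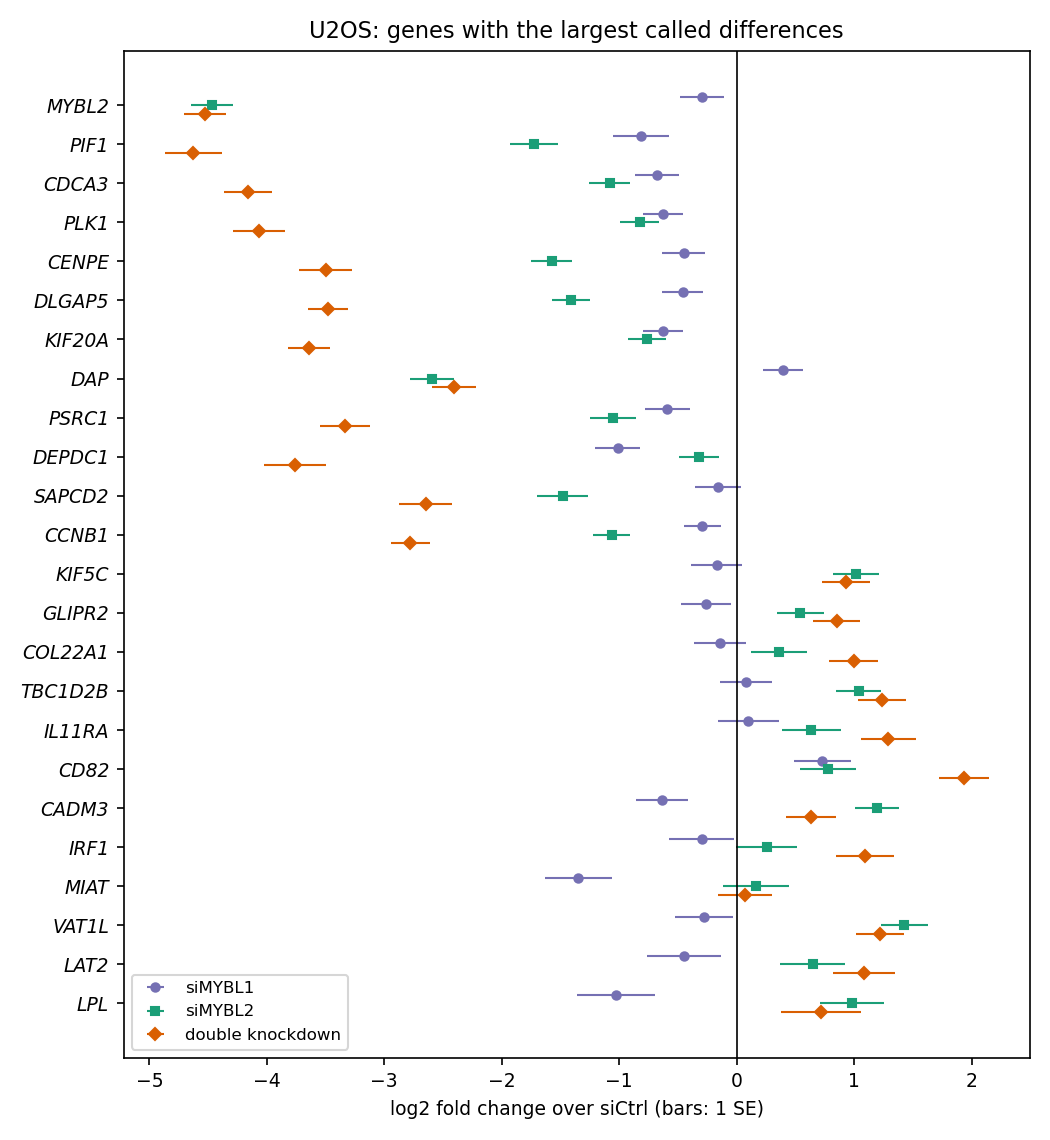
Points are the authors' log2 fold changes over siCtrl in U2OS after siMYBL1, after siMYBL2 and in the double knockdown, with bars of 1 SE, for the 12 genes furthest below and the 12 furthest above their siMYBL1 level among called genes whose base mean reached 100. For PLK1, CDCA3 and KIF20A both single knockdowns lie near -1 or above and the double knockdown below -3.5, whereas for DAP and MYBL2 the siMYBL2 and double values lie side by side.

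Values after siMYBL2 alone, set beside these, differed between the leading genes. These comparisons share the siCtrl libraries, so the values are given side by side. For DAP, a regulator of autophagy and cell death, the authors' deposited tables gave 0.40 (SE 0.17) after siMYBL1, -2.59 (SE 0.19) after siMYBL2 and -2.41 (SE 0.19) with both siRNAs. LIPA, the lysosomal acid lipase, had 0.45 (SE 0.21), -1.85 (SE 0.21) and -1.59 (SE 0.22) in the same order in the authors' deposited tables. In these 2 genes the double knockdown lay near the value after siMYBL2. PLK1 stood at -0.62 (SE 0.17), -0.82 (SE 0.17) and -4.07 (SE 0.22), and CCNB1 at -0.29 (SE 0.16), -1.06 (SE 0.15) and -2.78 (SE 0.16) in the authors' deposited tables. In these the double knockdown lay below both single knockdowns. Whether the effects of the single knockdowns add up was not tested.

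Outside the mitotic lists 139 genes were lower, and the word CCTTACA was more frequent among them than among other genes. Of 12613 genes with a 3′ UTR to search, 1119 held the word (8.87%), and 2.68% of these were lower in the double knockdown against 1.49% of genes without it. Holders (base mean from 100) had a median difference of -0.10 (987 genes, 619 below 0), and other genes one of 0.00. Ranked by the scaled mean of the holders after adjustment for 3′ UTR length, this word was at rank 1 of 16202 7-base words in U2OS too. Of the lower genes outside the mitotic lists that could be searched (127), 28 held it (22%), among them DAP, HLTF and LIPA. Of the 74 lower mitotic genes 2 held it (2.70%), 1 being CENPE. HLTF, a DNA translocase of replication fork repair, differed by -1.92 (SE 0.27) and carries 2 copies. In 99 of the 127 the word was absent, so it does not mark most of the lower genes outside the lists. What the word contributes to any gene was not tested.

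The word associated with siMYBL1, GAACTTA, had its low values in both groups. Its 1097 holders (base mean from 100) had median log2 fold changes of -0.09 after siMYBL1 and -0.10 in the double knockdown by the authors' deposited tables. Their median difference was 0.02, and the word was at rank 16082 of 16202 by the same scaled mean. Among the called lower genes that hold it are PIF1, VANGL1, a planar polarity protein (-1.69, SE 0.32), UBE2Q1, a ubiquitin-conjugating enzyme (-1.65, SE 0.27), and ETF1, the translation release factor (-1.32, SE 0.25). VANGL1 and ETF1 hold both words.

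**Figure D4:**
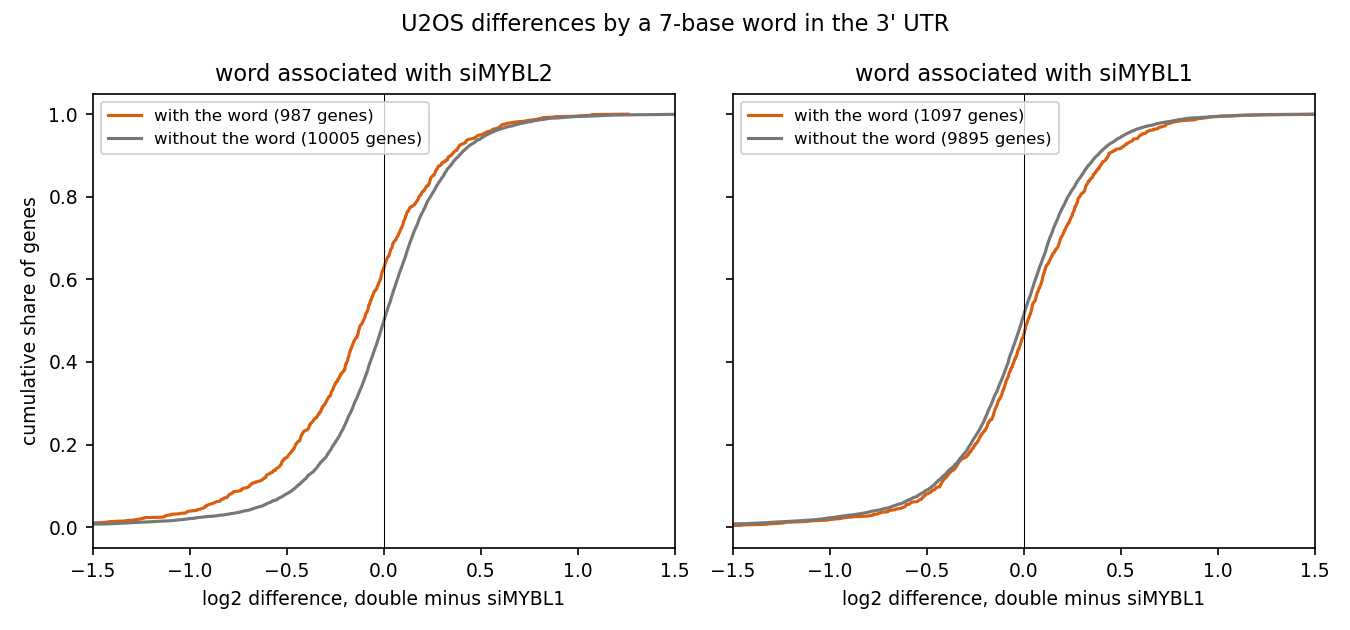
Cumulative share of U2OS genes (base mean from 100) by log2 difference between the double knockdown and siMYBL1, for genes with (orange) and without (grey) the 3′ UTR word associated with siMYBL2 (left) or siMYBL1 (right). The orange curve lies left of the grey one for the siMYBL2 word (medians -0.10 and 0.00) and slightly right of it for the siMYBL1 word (0.02 and -0.01).

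Some lower genes outside the lists are nevertheless known for the cell cycle, and they were named here after their values were seen. PRR11, a cell cycle protein, differed by -2.48 (adjusted p = 2.70e-20, normal test), the phosphatase CDKN3 by -2.14, the MYC-network repressor MXD3 by -2.04, the importin KPNA2 by -1.14 and the chromatin protein HMGB2 by -1.01. None of these 5 holds the siMYBL2 word. SAPCD2, a regulator of spindle orientation, differed by -2.49 (SE 0.30), from an implied 1003 to 182 mean normalized counts.

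Promoters of the lower genes often held the CHR letters. A promoter of 250 bases before to 50 after the start was found for 10878 of the 14760 genes, and TTTGAA or TTTAAA was searched on both strands, TTTAAA being its own reverse complement. One or both were present in 15.6% of the promoters of all tested genes and in 24.3% of the 27305 promoters of the RefSeq table. Among 173 lower genes the share was 49.1%, among the 62 lower mitotic genes 79.0%, and among 56 mitotic genes that were not called 44.6%. It was 36% in 86 lower genes outside the lists without the siMYBL2 word, and 19% in 21 that hold it. CCAAT (both strands) was present in 36.6% of all tested promoters and 80.6% of the lower mitotic ones, and CCAAT with TTTGAA or TTTAAA in 6.33% and 71.0%. In the 56 mitotic genes that were not called these shares were 48.2% and 17.9%. AACGG, the core of the MYB recognition sequence, was searched on both strands and was free to overlap the other words. It was present in 25.9% of all tested promoters, 35.3% of the lower genes and 51.6% of the lower mitotic genes. The 56 uncalled mitotic genes had it in 42.9%. Outside the lists it was present in 24.4% of the 86 lower genes without the siMYBL2 word and in 33.3% of the 21 that hold that word. No test was made of these shares, and a match gives letters in a window, not a bound site. MYBL2, AURKB, NEK2, CCNA2, PSRC1 and CDC25C had none of the CHR letters in their windows.

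In HCT116 most of the U2OS lower genes also lay below 0, and the mitotic lists had a median difference of -1.06. Of 12885 genes tested there, 165 were called (1.28%), 144 lower (1.12%) and 21 higher (0.163%). Of the 199 U2OS lower genes present in all 4 tables, 185 had a difference below 0 in HCT116, where 55.5% of all genes did, and 103 were called lower, which is 51.8% of the U2OS list and 72.0% of the 143 HCT116 lower genes in all 4 tables. The median difference of the 199 genes was -1.35 in U2OS and -0.94 in HCT116. For the 125 outside the mitotic lists, 111 were below 0 in HCT116 and 39 were called, with a median of -0.60. PLK1 differed by -2.01 in HCT116, TOP2A by -2.08, MKI67 by -2.29, CENPA by -2.28 and KIF20A by -2.47. CCNB1 did not pass there (-1.40, SE 0.48, adjusted p = 0.183, normal test). Of 8 U2OS higher genes found in every table, 6 were above 0 in HCT116 and 0 were called, and 0 of the 21 HCT116 higher genes were called in U2OS.

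The difference between lines itself passed for 4 of 12092 genes (0.0331%), with 253 (2.09%) at an unadjusted p under 0.05. DAP differed further in U2OS than in HCT116 (-2.80 against -1.09, line difference -1.71, SE 0.36, adjusted p = 0.0198, normal test), and so did SAPCD2 (-2.49 against -0.85, line difference -1.64, SE 0.36, adjusted p = 0.0303). ENC1, an actin-binding protein, was below 0 in U2OS and above 0 in HCT116 (-0.70 and 0.67), neither passing in its own line, with a line difference of -1.37 (adjusted p = 0.0466, normal test). Its call was lost where every base mean had to reach 100 (adjusted p = 0.0530, normal test) and where every SE had to be under 0.5 (0.0558). ENC1 itself met both limits (lowest base mean 1498, largest SE 0.17). Its line difference was unchanged, and the adjustment ran over another set of genes. DAP and SAPCD2 were the 2 genes that passed under both limits, and 80 genes passed with the variance divided by 2. The G1/S list gave a count of another kind. In 29 of its 60 genes the line difference had an unadjusted p under 0.05, U2OS being higher in all 29, although 0 passed after adjustment over all genes. Its median line difference was 0.72, against 0.00 over all genes. Homologous recombination and Fanconi genes gave 5 of 27, U2OS being higher in all 5. Replication-dependent histone genes went the other way, with 5 of 12, U2OS being lower in all 5, and a median line difference of -1.41. With the variance halved, as equal groups with shared controls would have it, 9 G1/S genes and 3 recombination genes passed with U2OS higher in each, and 3 histone genes with U2OS lower in each. For p53 targets, 11 of 33 were higher in HCT116 (median 0.81) and 1 of 35 in U2OS (median 0.33), but the line difference passed in 0 of them, with 3 at an unadjusted p under 0.05. CDKN1A differed by 1.47 (adjusted p = 2.72e-09, normal test) in HCT116 and by 0.34 in U2OS, with a line difference of -1.13 (SE 0.87) that did not pass.

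**Figure D5:**
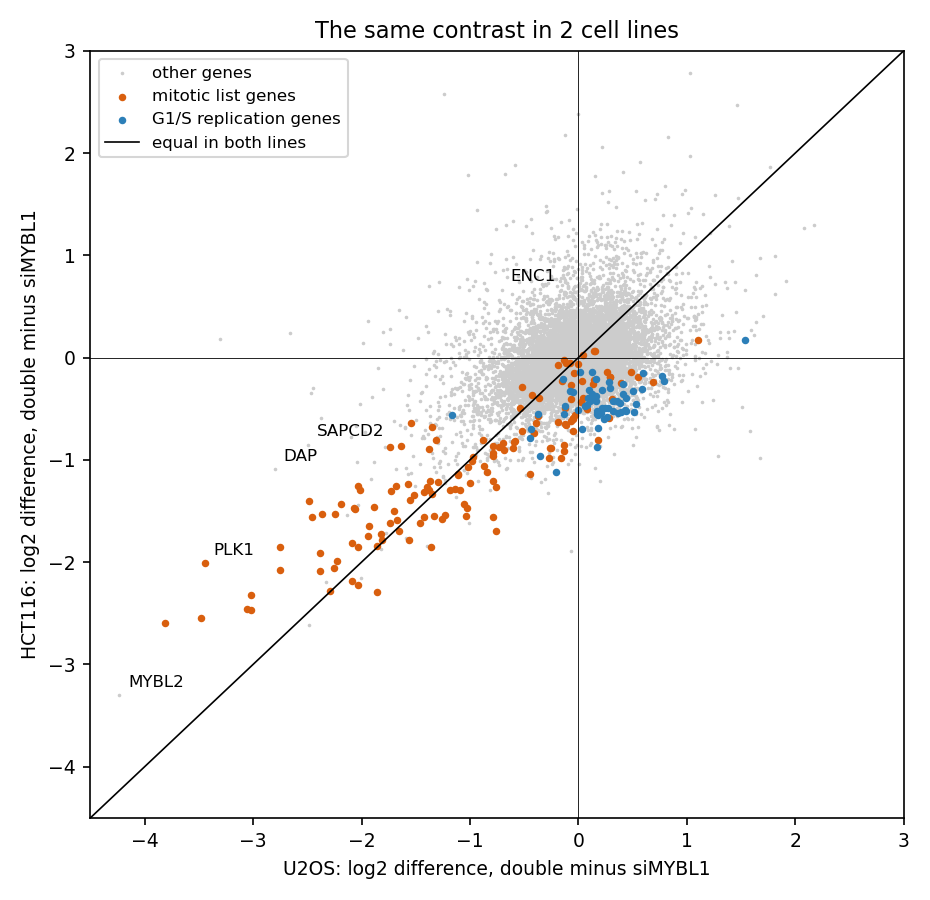
Each point is 1 gene present in all 4 tables, with its log2 difference between the double knockdown and siMYBL1 in U2OS on the x axis and in HCT116 on the y axis; 1 gene lies outside the axes. Mitotic genes (orange) run along the line of equal values into the lower left, G1/S genes (blue) sit mostly right of 0 in U2OS and below 0 in HCT116, and DAP and SAPCD2 lie above the line.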

How the data were processed

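RNA was sequenced by the authors from 16 libraries in 8 groups of 2. Trimming with cutadapt 4.4, quantification with Salmon 1.10.1, tests with DESeq2 1.40 and the build hg38 are named in the submitters' processing notes, which give no settings. The 6 deposited tables each compare 1 knockdown with siCtrl over 4 libraries. Per the file headers, base mean is a signal, namely a gene's normalized count averaged over those libraries. The deposited fold change is on the log2 scale with its SE. A Wald score is also deposited and equals fold change divided by SE. The deposited p-value and adjusted p-value were checked against a normal test of that score and the Benjamini-Hochberg adjustment.

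The U2OS tables of the double knockdown and siMYBL1 were joined by gene identifier. The difference of log2 fold changes was divided by the root of the summed squared SE, with a 2-sided normal p and Benjamini-Hochberg adjustment over all joined genes, called under 0.05, in Python 3.11.15 with scipy 1.17.1 and pandas 2.3.3. The test was tried first on simulated data with shared controls and normal noise drawn from the deposited SE. The test assumes such noise, so this trial could not show errors in those SE. Intervals are 95%. Group levels come from base mean and fold change, with 2 libraries on each side. The p-values measure only the spread among these libraries.

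Genes were named by rule: MYB family members and 9 cell cycle genes always, the 12 highest and 12 lowest called differences whose base mean reached 100, up to 4 genes of each of 26 lists by smallest adjusted p, called line differences, and holders of the 3′ UTR words. The genes and lists were chosen with earlier results of these data known. The 7-base words were chosen in the HCT116 single knockdowns, over 3′ UTRs of 18969 genes in GENCODE 29. A linear trend of the fold change with log2 3′ UTR length was removed first. Words with at least 50 holders were then ranked by the mean of their holders, times the root of the number of holders, over the SD of all genes. The differences in U2OS were ranked in the same way, and medians are printed beside the ranks. Alternatives were the variance divided by 2, a base mean minimum of 100, centring on the median, and SE under 0.5. Single-gene results for 2 called genes are not reported here.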

Additional observations from a re-analysis of the deposited data

Results flagged for a closer look

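The contrast between the double knockdown and siMYBL1 differed between U2OS and HCT116 by a test of the difference itself for DAP, SAPCD2 and ENC1, among the 4 genes that passed. The line difference, U2OS minus HCT116, was -1.71 for DAP, -1.64 for SAPCD2 and -1.37 for ENC1. DAP holds the 3′ UTR word associated with siMYBL2, and its part in the line difference was not tested. For ENC1 the adjusted p was 0.0466 by the normal test with Benjamini-Hochberg adjustment and the SE 0.32. Its call was lost, at an adjusted p of 0.0530, where every base mean had to reach 100 and, at 0.0558, where every SE had to be under 0.5, whereas DAP and SAPCD2 passed under both. ENC1 itself met both limits with its line difference unchanged, and the adjustment ran over another set of genes.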

How the results depend on the processing

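Halving the variance raised the genes called in U2OS from 227 to 822 (602 lower, 220 higher), those in HCT116 from 165 to 545 and those differing between lines from 4 to 80. All 227 were among the 822, of which 73.2% were lower against 93.8% before. The line difference was called for 2 genes where the base mean had to reach 100 in all tables, and for 2 with every SE under 0.5. Under the other alternatives U2OS gave 224 to 239 called genes, 209 to 224 lower and 15 to 16 higher. Lower mitotic genes numbered 74 to 87 over all alternatives. Of 125 named genes 27 passed in addition with the variance halved, 2 with the base mean minimum and 2 with the SE limit, and 0 lost their call. With the variance halved, 13 kinetochore, 11 stress, 9 histone and 5 cholesterol genes were lower, and 6 interferon-stimulated and 5 G1/S genes were higher. No paired analysis was possible because the tables hold 1 value per gene and comparison and none per library. Leaving out a library was not run for the same reason, so no call can be traced to 1 library. Depth per library is unknown, and the median SE of 0.314 limits single genes to differences of about a log2 unit.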
